A study of Drosophila melanogaster with 9 samples.

Results

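The semaphorin, plexin and ephrin genes of Drosophila melanogaster were described here in S2R+, a line derived from embryos whose cells resemble blood cells (haemocytes). The members were 9 named genes, Sema1a, Sema1b, Sema2a, Sema2b, Sema5c, PlexA, PlexB, Eph and Ephrin, found by matching FlyBase identifiers to these symbols. Of the 9, 8 had a row among the 17559 genes of each file, and Sema5c, whose current identifier had none, was not analysed here. Of those 8, 7 passed the filter on low counts and were tested, and Sema2b did not pass.

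The study compared 3 groups of 3 libraries of poly(A)-selected RNA. Control cells expressed a nuclear GFP. The other groups expressed the Hox transcription factor Ultrabithorax, either unchanged (Ubx-WT) or with an altered residue in its DNA-binding homeodomain (Ubx-N51A). Every group used Gal4-UAS with an actin promoter. The labels call the Ubx tag myc in one place and GFP in another, so which tag the cells carried is unknown. Of 4 independent replicates per group, the submitters chose 3 by principal component analysis, and what this did to the spread was not tested. A sorting word in the file names varies with the group, and if cells were sorted, that step and the expressed protein cannot be told apart.

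Semaphorins are secreted or membrane-bound cues that steer growing axons and moving cells, and plexins are their receptors. In Drosophila, PlexA is the receptor of the membrane-bound class encoded by Sema1a and Sema1b, and PlexB is the receptor of the secreted class encoded by Sema2a and Sema2b. Both receptors act on the cytoskeleton through small GTPases, and PlexA also acts through the actin-oxidising enzyme Mical. Ephrin is the membrane-bound ligand of the receptor tyrosine kinase Eph, and this pair also guides axons and keeps groups of cells apart.

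The libraries held 30967554 to 66828787 reads assigned to genes. Ubx itself had 14, 8 and 89 reads in the GFP libraries, 71888, 69408 and 102681 in Ubx-WT and 51719, 76367 and 145254 in Ubx-N51A, so the transcript was abundant in all Ubx libraries and close to absent in GFP, although these reads do not separate the wild-type from the changed protein. In CPM (reads scaled to library size with TMM factors), Ubx stood at 1709, 1384 and 1498 in Ubx-WT and 1721, 2053 and 2275 in Ubx-N51A. Every Ubx-N51A library thus lay above every Ubx-WT library. Between these 2 groups, the amount of Ubx transcript and the altered residue cannot be told apart. Of 11 haemocyte markers in the files, 9 had a mean of at least 1 CPM, and the summed level of the list was 1040 to 1160 CPM in GFP, 1080 to 1130 CPM in Ubx-WT and 1110 to 1130 CPM in Ubx-N51A. NimC1 and lz, also haemocyte markers, stayed below 1 CPM in every library. Of 6 neuronal markers only elav and futsch reached that mean, and the list summed to 45.8 to 54.0 CPM in GFP, 54.4 to 64.2 CPM in Ubx-WT and 52.8 to 56.8 CPM in Ubx-N51A. Of 4 glial markers, loco and moody reached it while repo and gcm did not, and the list summed to 440 to 443 CPM, 411 to 425 CPM and 417 to 443 CPM in the same order. Among the other lists, 1 of 4 muscle markers (Mef2), 1 of 5 fat body markers (apolpp), 2 of 3 epithelial markers (shg and crb) and 1 germ line marker (bam) reached it. The part of these marker levels in the results on guidance genes was not tested.

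The cells carried the transcripts of receptors and ligands at very unequal levels. Per kilobase of merged exon, the mean level over the 9 libraries was 44.2 CPM per kb for Ephrin, 42.5 for Eph, 38.4 for Sema1b, 23.8 for PlexA, 8.44 for PlexB, 1.52 for Sema1a, 0.189 for Sema2a and 0.0123 for Sema2b. Merged exon counts every annotated exon of a gene. Comparisons between genes are thus approximate, because the transcript forms that these cells made were not determined. Ephrin lay at the 77.9th percentile of tested genes and Sema1a at the 23.8th, so the ephrin pair, Sema1b and PlexA were well expressed while the secreted semaphorins were at trace level. Ephrin exceeded Eph in 9 of 9 libraries by 1.04-fold in the mean, but the ranges of their levels overlapped. Eph exceeded Sema1b in 7 of 9 libraries, again with overlapping ranges. From Sema1b downwards no range touched that of the next gene, and the steps were 1.62-fold from Sema1b to PlexA, 2.81-fold to PlexB, 5.55-fold to Sema1a, 8.05-fold to Sema2a and 15.3-fold to Sema2b.

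**Figure D1:**
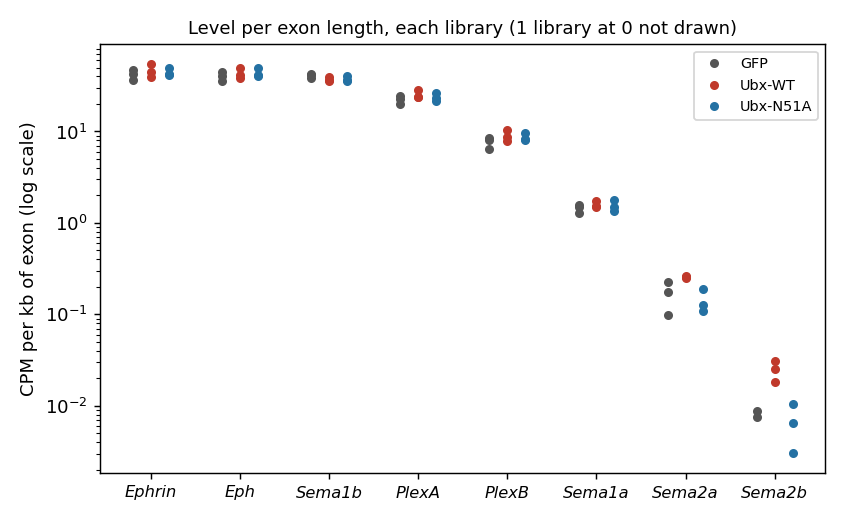
Level of each gene in every library, in CPM per kb of merged exon on a log axis; points are libraries, coloured by group, and the GFP library with 0 reads of Sema2b is not drawn. Ephrin, Eph and Sema1b lie together near the top, and Sema2a and Sema2b lie far below every other gene.

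No member was called changed in any of the 3 comparisons. A gene was called when its Benjamini-Hochberg adjusted p from edgeR's quasi-likelihood test, over all 9207 tested genes, was under 0.05. With Ubx-WT against GFP 0 of 7 tested members were called beside 16.6% of all tested genes (8.72% higher and 7.83% lower). With Ubx-N51A against GFP it was 0 of 7 beside 8.09% (3.38% higher and 4.71% lower), and with Ubx-N51A against Ubx-WT 0 of 7 beside 5.14% (1.23% higher and 3.91% lower). At an unadjusted p under 0.05 in the edgeR fit, 2, 0 and 1 of 7 members passed in these comparisons beside 30.7%, 23.4% and 17.0% of all tested genes, and DESeq2 also called 0 in each. In bulk RNA of this kind, fewer cells carrying a transcript and less transcript per cell cannot be told apart.

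The groups of libraries did not overlap for 1 of 7 members with Ubx-WT against GFP, beside 35.4% of all tested genes, for 0 of 7 with Ubx-N51A against GFP, beside 29.4%, and for 1 of 7 with Ubx-N51A against Ubx-WT, beside 22.8%. The 1 gene in both cases was Sema2a. The median log2 fold change of the 7 was 0.15, 0.09 and -0.06 in the same order, beside medians of 0.00054, 0.013 and 0.0056 over all tested genes. The first 2 comparisons share their GFP libraries.

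**Figure D2:**
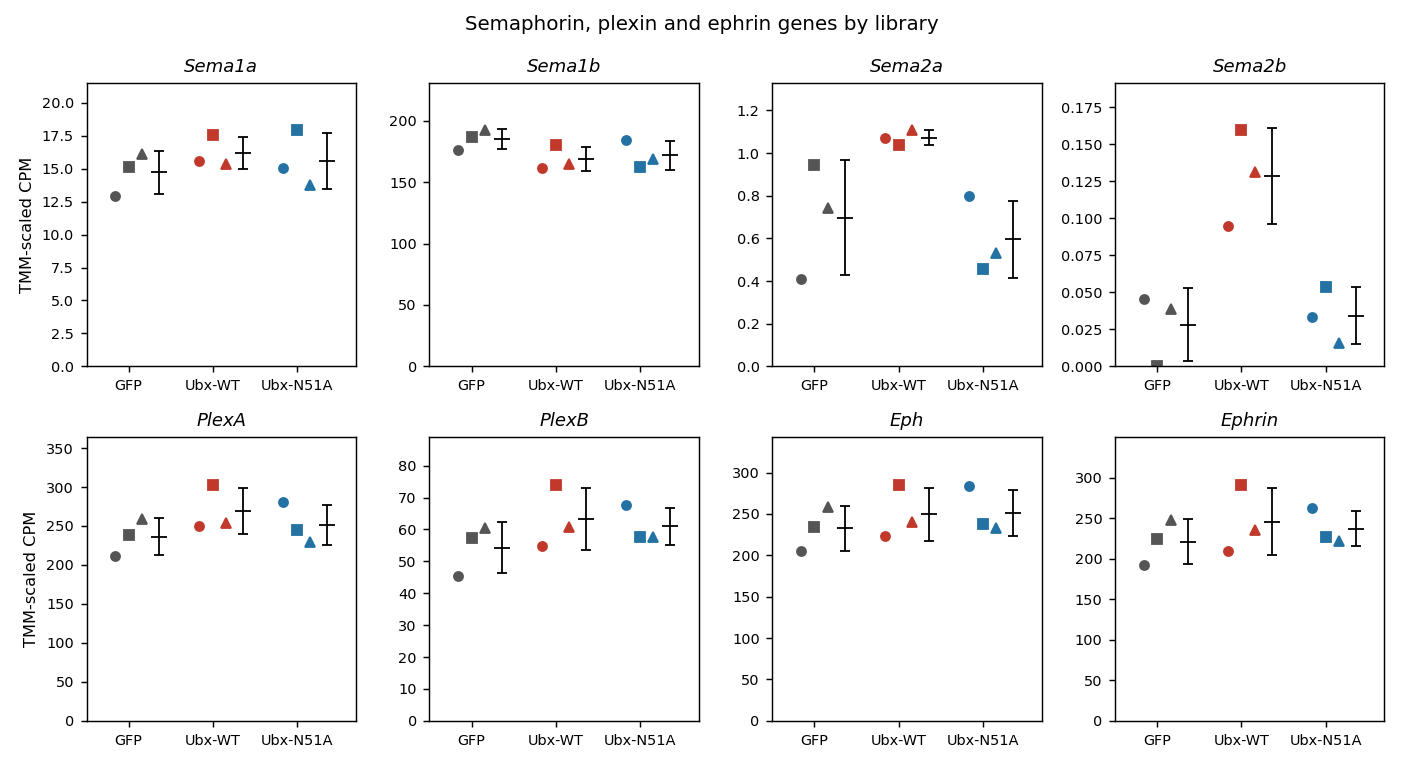
TMM-scaled CPM of each member in the 9 libraries, each panel with its own axis from 0; circles, squares and triangles are replicates 1, 2 and 3 of a group, and the bars give mean ± SD (n = 3). The groups overlap in every panel except those of Sema2a, where Ubx-WT lies above both others, and Sema2b, where Ubx-WT lies above both others at a few reads per library.

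Among the ligands, Sema1b was the well-expressed class 1 semaphorin. Sema1b (FBgn0016059; 2R, 17672839 to 17683499, minus strand, dm6) stood at 177, 187 and 193 CPM in GFP, 162, 180 and 165 CPM in Ubx-WT, and 185, 162 and 169 CPM in Ubx-N51A. Ubx-WT replicates 1 and 3 and Ubx-N51A replicates 2 and 3 lay below every GFP library, while Ubx-WT replicate 2 and Ubx-N51A replicate 1 lay within the GFP range. Against GFP, Ubx-WT gave a log2 fold change of -0.13 (SE 0.056, 95% interval -0.25 to -0.01), with an adjusted p of 0.126 in edgeR. For Ubx-N51A it was -0.11 against GFP (interval -0.23 to 0.01, adjusted p 0.262) and 0.02 against Ubx-WT (interval -0.10 to 0.14, adjusted p 0.89).

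Sema1a encodes the other membrane-bound semaphorin, which acts both as a ligand and as a receptor. Sema1a (FBgn0011259; 2L, 8542147 to 8672041, plus strand) stood at 12.9, 15.2 and 16.1 CPM in GFP, 15.6, 17.6 and 15.4 CPM in Ubx-WT, and 15.1, 17.9 and 13.8 CPM in Ubx-N51A. The groups overlapped in all comparisons, and GFP replicate 1 was the lowest library. Its log2 fold change was 0.13 for Ubx-WT against GFP (SE 0.102, interval -0.09 to 0.35, adjusted p 0.42), 0.07 for Ubx-N51A against GFP (interval -0.15 to 0.30, adjusted p 0.718) and -0.06 between the Ubx proteins (interval -0.28 to 0.16, adjusted p 0.834).

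The secreted semaphorins were near the limit of detection. Sema2a (FBgn0011260; 2R, 16500178 to 16533459, plus strand) had 18, 37 and 38 reads in GFP, 45, 52 and 76 in Ubx-WT, and 24, 17 and 34 in Ubx-N51A, which is 0.409, 0.943 and 0.741 CPM, then 1.07, 1.04 and 1.11 CPM, then 0.799, 0.457 and 0.533 CPM. All 3 Ubx-WT libraries lay above all libraries of both other groups, which overlapped each other. Its log2 fold change was 0.63 for Ubx-WT against GFP (SE 0.256, interval 0.08 to 1.18) with an unadjusted p of 0.0288 and an adjusted p of 0.114 in edgeR. It was -0.89 for Ubx-N51A against Ubx-WT (SE 0.267, interval -1.47 to -0.31), with an unadjusted p of 0.00556 and an adjusted p of 0.0856, and -0.26 for Ubx-N51A against GFP (interval -0.90 to 0.37, adjusted p 0.632). The contrast between the Ubx proteins passed the threshold in edgeR under 3 of 15 alternatives. These were no filter on low counts (adjusted p 0.0199), only the 6 libraries of those groups (0.0468) and leaving out GFP replicate 1 (0.0348). The contrast was not called under the other 12, with 0.0901 in DESeq2, 0.149 with a replicate block and up to 0.235. Leaving out GFP replicate 1 brought the contrast of Ubx-WT with GFP to 0.37 (adjusted p 0.351).

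Sema2b, the second secreted semaphorin, was at trace level. Sema2b (FBgn0264273; 2R, 16386524 to 16431758, plus strand) had 2, 0 and 2 reads in GFP, 4, 8 and 9 in Ubx-WT, and 1, 2 and 1 in Ubx-N51A. The 3 Ubx-WT libraries again had more reads than any other library, and the count of 0 in GFP replicate 2 allows a level of up to 0.075 CPM (3 reads). Summed over libraries and divided by library size, Ubx-WT had 4.56 times the reads of GFP (exact 95% interval 1.54 to 18.3) and Ubx-N51A 0.226 times those of Ubx-WT (0.0563 to 0.669). For Sema2a the same ratios were 1.61 (1.25 to 2.10) and 0.514 (0.386 to 0.677). These intervals cover counting error only, not the spread between libraries. In the edgeR fit with no filter on low counts the adjusted p of Sema2b was 0.0769 for Ubx-WT against GFP and 0.169 for Ubx-N51A against Ubx-WT.

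The plexin receptors and the ephrin pair share a chromosome. PlexA, PlexB, Eph and Ephrin all lie on chromosome 4, the small, largely heterochromatic autosome of Drosophila. PlexA (FBgn0025741; 4, 1009895 to 1027101, minus strand) stood at 211, 239 and 259 CPM in GFP, 251, 303 and 253 CPM in Ubx-WT, and 280, 245 and 229 CPM in Ubx-N51A. The groups overlapped, and Ubx-WT replicate 2 was the highest library. On the log2 scale the change was 0.19 for Ubx-WT against GFP (SE 0.090, interval -0.01 to 0.38, adjusted p 0.182), 0.09 for Ubx-N51A against GFP (interval -0.11 to 0.29, adjusted p 0.596) and -0.10 between the Ubx proteins (interval -0.29 to 0.10, adjusted p 0.641). With no filter on low counts the first of these reached an adjusted p of 0.0498 in edgeR. The other 14 alternatives did not call it, and without Ubx-WT replicate 2 it was 0.09 (adjusted p 0.557).

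PlexB (FBgn0025740; 4, 32478 to 43778, minus strand) stood at 45.3, 57.2 and 60.3 CPM in GFP, 54.9, 74.1 and 60.8 CPM in Ubx-WT, and 67.8, 57.8 and 57.5 CPM in Ubx-N51A. GFP replicate 1 was the lowest library and Ubx-WT replicate 2 the highest, and the groups overlapped. The log2 fold change was 0.22 (SE 0.115, interval -0.03 to 0.47, adjusted p 0.217) for Ubx-WT against GFP, 0.16 (interval -0.09 to 0.42, adjusted p 0.425) for Ubx-N51A against GFP, and -0.06 (interval -0.30 to 0.19, adjusted p 0.867) between the Ubx proteins. An antisense RNA overlaps PlexB, and it had 129 reads over the 9 libraries against 25382 for PlexB.

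Eph (FBgn0025936; 4, 610684 to 622470, plus strand), the receptor tyrosine kinase, stood at 205, 235 and 259 CPM in GFP, 223, 285 and 241 CPM in Ubx-WT, and 283, 237 and 233 CPM in Ubx-N51A. Ephrin (FBgn0040324; 4, 571755 to 580122, plus strand), its ligand, stood at 192, 224 and 247 CPM, then 210, 292 and 236 CPM, then 262, 227 and 222 CPM. Both genes had overlapping groups, with Ubx-WT replicate 2 and Ubx-N51A replicate 1 above the GFP libraries. For Ubx-WT against GFP the log2 fold change was 0.10 for Eph (SE 0.101, interval -0.12 to 0.32, adjusted p 0.536) and 0.15 for Ephrin (SE 0.112, interval -0.09 to 0.40, adjusted p 0.394). Without Ubx-WT replicate 2 these became -0.0047 and 0.01. For Ubx-N51A against GFP they were 0.11 and 0.10, and between the Ubx proteins 0.01 and -0.05, with adjusted p values from 0.548 to 0.978.

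**Figure D3:**
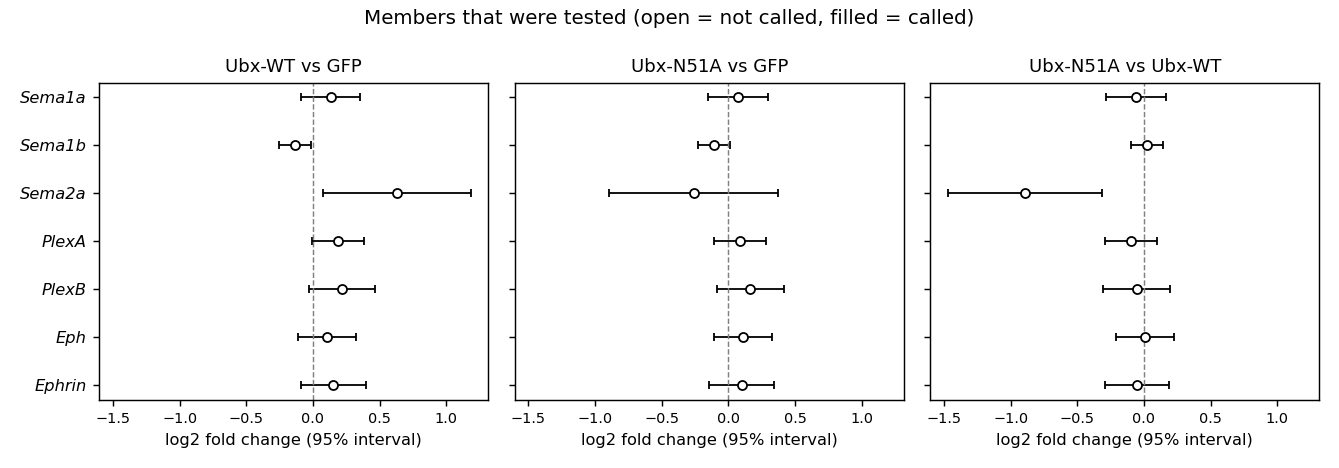
Log2 fold changes of the 7 tested members in the 3 comparisons, with 95% intervals from the edgeR fit on all 9 libraries; an open symbol was not called. Every symbol is open, and Sema2a, the gene with the fewest reads, has the widest intervals.

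For the 6 members above 10 CPM the intervals set bounds on what these libraries could have missed. Their ends ran from 0.838-fold (Sema1b) to 1.38-fold (PlexB) for Ubx-WT against GFP, from 0.852-fold (Sema1b) to 1.33-fold (PlexB) for Ubx-N51A against GFP, and from 0.81-fold (PlexB) to 1.17-fold (Eph) for Ubx-N51A against Ubx-WT. A p above the threshold does not show that levels were equal, so these bounds, and not the missing calls, state the result.

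The members shared much of their variation from library to library, on chromosome 4 and elsewhere. In GFP replicate 3 the log2 level of PlexA, PlexB, Eph and Ephrin lay 0.137, 0.163, 0.159 and 0.17 above the group mean, in Ubx-WT replicate 2 it lay 0.178, 0.239, 0.2 and 0.26 above, and in Ubx-N51A replicate 1 it lay 0.161, 0.156, 0.179 and 0.15 above. In GFP replicate 1 the 4 lay below the group mean by values of -0.157, -0.25, -0.177 and -0.197. The other 82 tested genes of chromosome 4 took 1.17%, 1.22% and 1.30% of the reads in GFP, 1.21%, 1.43% and 1.29% in Ubx-WT, and 1.34%, 1.23% and 1.21% in Ubx-N51A, so the same libraries were high for the chromosome as a whole. Sema1b, on 2R, deviated from its group mean in the same direction as PlexA in all 9 libraries, by smaller amounts, with -0.0685 in GFP replicate 1, 0.0563 in GFP replicate 3, 0.0952 in Ubx-WT replicate 2 and 0.107 in Ubx-N51A replicate 1. Sema1a, on 2L, did so in the GFP and Ubx-WT libraries but not in Ubx-N51A replicates 1 and 2, where it deviated by -0.0394 and 0.211. The pattern was not particular to the members. Within their groups Rac2, Rap1 and Vap33 were also lowest in GFP replicate 1 and highest in Ubx-WT replicate 2 and Ubx-N51A replicate 1. Not every gene followed it, and Mical was lowest in Ubx-N51A replicate 1. The share of reads from the mitochondrial genome ranked the libraries within each group in the same order as the chromosome 4 share. It was 1.92%, 3.06% and 3.43% in GFP, 2.77%, 4.91% and 3.34% in Ubx-WT, and 5.87%, 4.12% and 4.11% in Ubx-N51A, and its part in these levels was not tested.

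Against GFP, these 82 genes had a median log2 fold change of 0.13 with Ubx-WT, where 70 were positive, and of 0.13 with Ubx-N51A, where 66 were positive. Over all 9207 tested genes 4625 and 4989 were positive. With Ubx-WT 6 of the 82 were called higher and 0 lower, beside 8.72% and 7.83% of all tested genes, and with Ubx-N51A 2 were called higher and 0 lower, beside 3.38% and 4.71%. Over the left-out libraries the first median ran from 0.03 (without Ubx-WT replicate 2) to 0.22 (without GFP replicate 3), with 1 to 13 called higher. The second ran from 0.04 (without Ubx-N51A replicate 1) to 0.20 (without GFP replicate 3), with 0 to 5 called higher. Between the Ubx proteins the median was -0.03, with 31 positive, 0 called higher and 1 called lower. The part of the chromosome in the values of the 4 members was not tested.

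Ratios between members within a library do not depend on how libraries are scaled, but their absolute values rest on the merged exon lengths. The PlexA to PlexB ratio per kb lay between 2.65 and 3.09 in all 9 libraries, and the Eph to Ephrin ratio between 0.904 and 0.997. The ratio of class 1 ligand to receptor, the sum of Sema1a and Sema1b over PlexA, was 2.01, 1.89 and 1.79 in GFP, 1.56, 1.44 and 1.58 in Ubx-WT, and 1.59, 1.62 and 1.77 in Ubx-N51A. This ratio was lower in every library of both Ubx groups than in every GFP library, and it was lower with Ubx-WT than with Ubx-N51A. Of single tested genes, 35.4% had groups without overlap with Ubx-WT against GFP. It was 29.4% with Ubx-N51A against GFP and 22.8% with Ubx-N51A against Ubx-WT.

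In log2 units the mean class 1 ratio differed by -0.31 for Ubx-WT against GFP, by -0.19 for Ubx-N51A against GFP and by 0.12 for Ubx-N51A against Ubx-WT. Each difference had a two-sided exact permutation p of 0.1, the smallest that 3 libraries against 3 allow, and 0.36 after Benjamini-Hochberg adjustment over the 18 ratio tests. The Sema1a to Sema1b ratio differed by 0.27 for Ubx-WT against GFP, and the ratio of the summed secreted semaphorins to PlexB by -0.88 for Ubx-N51A against Ubx-WT, each with an exact p of 0.1 and an adjusted value of 0.36. The other 13 ratio tests had an exact p of 0.2 or more.

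Calls did appear among the partners of the receptors. A list of 24 pathway genes was described beside the members, of which 23 were tested. The receptor guanylyl cyclase gene Gyc76C, with 0 to 6 reads per library, was not tested. Of the 23, 5 were called with Ubx-WT against GFP (3 higher and 2 lower), 3 with Ubx-N51A against GFP (3 higher) and 3 with Ubx-N51A against Ubx-WT (2 higher and 1 lower). In the same comparisons 21.7%, 13% and 13% of the list were thus called, beside 16.6%, 8.09% and 5.14% of all tested genes. The list was chosen with earlier results of these data known, so these shares describe the list and do not test it. The list's median log2 fold change was 0.0013, -0.04 and 0.0042.

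The off-track genes otk and otk2 were higher in both Ubx groups than in GFP, and higher with Ubx-N51A than with Ubx-WT. They encode related transmembrane proteins. The otk protein has an inactive kinase domain and is known as a partner of PlexA. The genes lie side by side on 2R on the minus strand, otk from 12001473 to 12019846 and otk2 from 12023146 to 12025272, with 3299 bases and 0 annotated genes between them. The otk level was 30.9, 30.4 and 28.6 CPM in GFP, 39.3, 42.1 and 40.1 CPM in Ubx-WT, and 47.8, 53.5 and 53.8 CPM in Ubx-N51A, so the groups were ordered without overlap. On the log2 scale it rose by 0.44 with Ubx-WT (SE 0.056, edgeR adjusted p 0.000183) and of 0.79 with Ubx-N51A (SE 0.056, adjusted p 3.1e-06), and it was higher by 0.36 with Ubx-N51A than with Ubx-WT (SE 0.055, adjusted p 0.00151).

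The otk2 level was 3.00, 2.68 and 2.40 CPM in GFP, 3.76, 3.93 and 3.91 CPM in Ubx-WT, and 4.72, 6.16 and 5.97 CPM in Ubx-N51A. These groups were ordered in the same way, again without overlap. The log2 fold change was 0.53 with Ubx-WT (SE 0.123, adjusted p 0.0106), 1.08 with Ubx-N51A (SE 0.121, adjusted p 0.000175) and 0.55 between the Ubx proteins (SE 0.114, adjusted p 0.0121). The last call was lost without Ubx-WT replicate 3 (adjusted p 0.0528), Ubx-N51A replicate 2 (0.0539) or Ubx-N51A replicate 3 (0.0635).

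Pka-R2 encodes a regulatory subunit of protein kinase A, a kinase that, anchored by Nervy, counteracts PlexA signalling in Drosophila axons. Its level was 43.1, 45.4 and 41.4 CPM in GFP, 74.2, 78.2 and 72.2 CPM in Ubx-WT, and 52.1, 51.7 and 48.9 CPM in Ubx-N51A. Here Ubx-WT was the highest group and no groups overlapped. The log2 fold change was 0.79 with Ubx-WT (SE 0.049, adjusted p 2.66e-07), 0.23 with Ubx-N51A (SE 0.050, adjusted p 0.0126) and -0.56 for Ubx-N51A against Ubx-WT (SE 0.049, adjusted p 1.07e-05). Without Ubx-N51A replicate 2 the adjusted p of the small rise with Ubx-N51A was 0.0531.

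**Figure D4:**
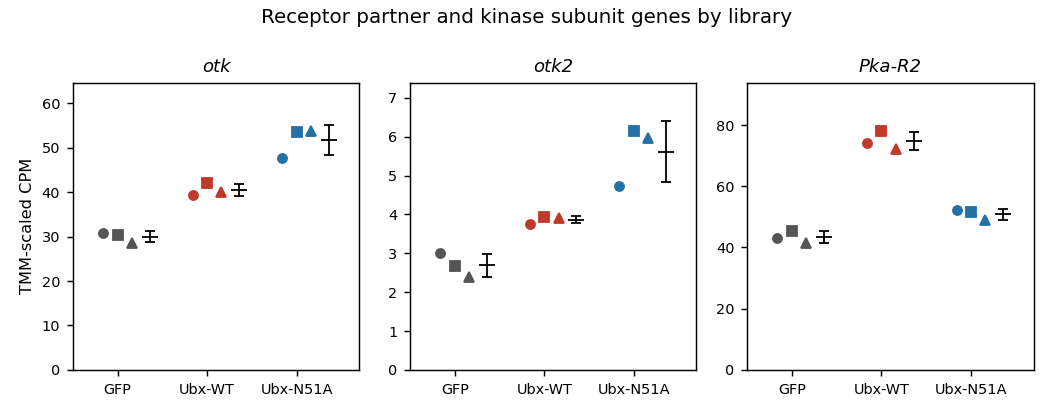
TMM-scaled CPM of otk, otk2 and Pka-R2 in the 9 libraries, axes from 0; circles, squares and triangles are replicates 1, 2 and 3, and bars give mean ± SD (n = 3). The otk and otk2 levels are highest in Ubx-N51A, and the Pka-R2 level is highest in Ubx-WT.

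Against GFP, the 2 genes called lower were meigo and Pak, both with Ubx-WT and both by small amounts. The gene meigo, which was found in Drosophila olfactory neurons and acts with Ephrin in targeting dendrites, fell with Ubx-WT, having 58.5 ± 1.18 CPM in GFP and 51.1 ± 1.62 CPM in Ubx-WT (SD, n = 3). The log2 difference was -0.19, with an SE of 0.040 and an edgeR adjusted p of 0.00537. With Ubx-N51A against GFP the log2 difference of meigo was -0.14 (adjusted p 0.0562), with 0.034 to 0.177 over the alternatives. It passed the threshold in DESeq2 (0.034) and, in edgeR, without Ubx-WT replicate 2 (0.0464). Between the Ubx proteins the difference was 0.06 (adjusted p 0.533). Pak, a kinase activated by Rac, had 196 ± 1.89 CPM in GFP and 180 ± 1.40 CPM in Ubx-WT, a log2 difference of -0.12 with an SE of 0.033 and an adjusted p of 0.0248. Its log2 difference was -0.08 for Ubx-N51A against GFP (adjusted p 0.188) and 0.04 between the Ubx proteins (adjusted p 0.55). The Pak call was lost in 7 of 15 alternatives, with an adjusted p of 0.202 when libraries were scaled by their totals alone. The uncalled genes of the list at 1 CPM or more, among them Mical, nvy and the small GTPases, had log2 fold changes from -0.12 to 0.12 with Ubx-WT (17 genes), from -0.18 to 0.15 with Ubx-N51A (19 genes) and from -0.12 to 0.11 between the Ubx proteins (19 genes). RhoGEF64C, at under 1 CPM, was not called either.

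**Figure D5:**
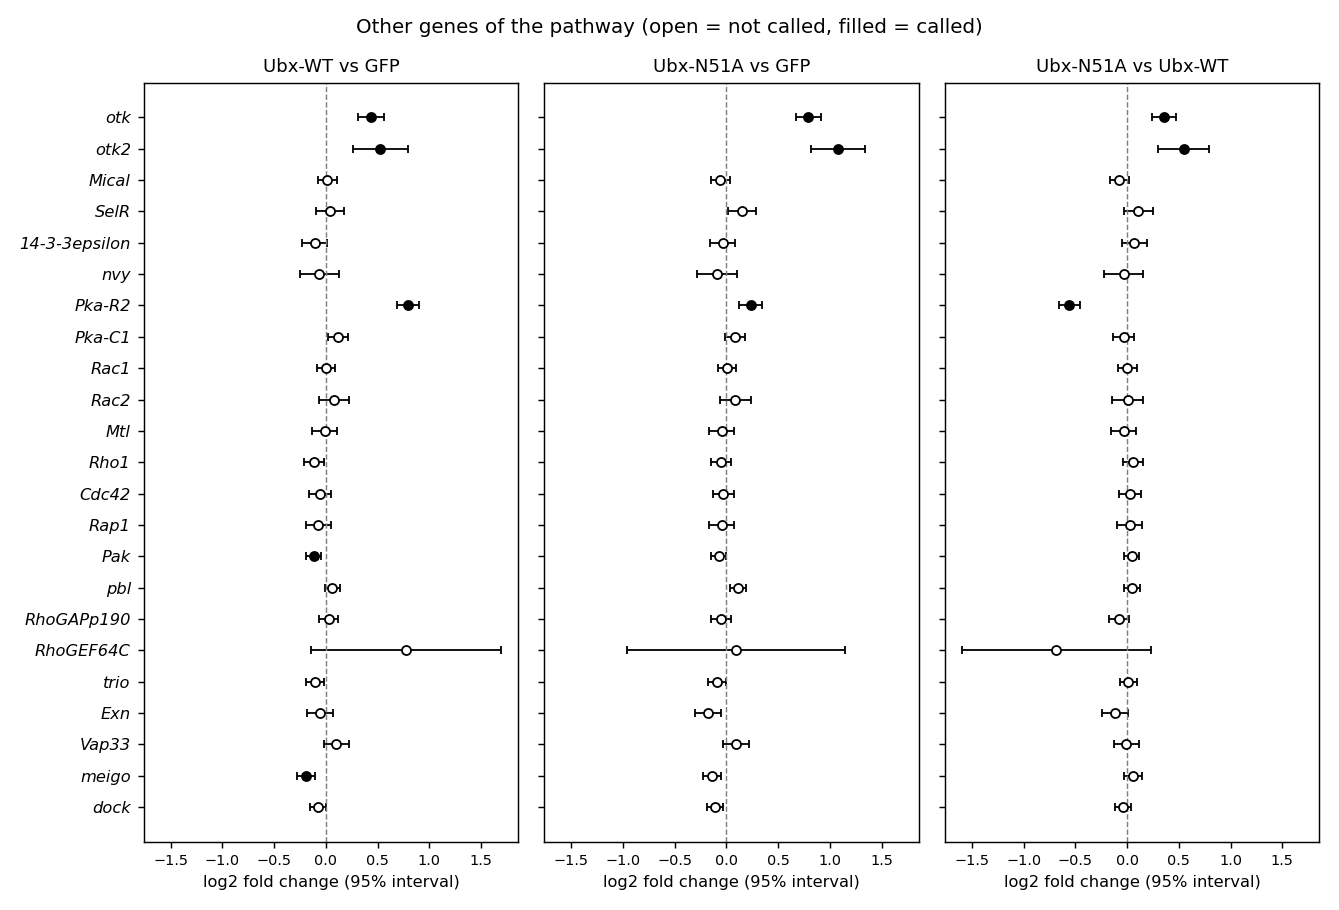
Log2 fold changes of the 23 tested pathway genes with 95% intervals from the edgeR fit; filled symbols were called and open symbols were not. The filled symbols are otk, otk2 and Pka-R2 in all 3 comparisons, and Pak and meigo with Ubx-WT against GFP.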

How the data were processed

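Each deposited file holds whole-number read counts by FlyBase gene for 1 library, made by the authors. The submitters' processing notes name Trimmomatic 0.36, STAR and HTSeq among their tools and dm6 as build. Strand setting and annotation release: not given in the sources used here. Libraries were directional and read from one end, per the labels. All 5 summary lines were left out. They held 1.50% to 2.27% (no feature), 3.11% to 3.32% (ambiguous) and 3.26% to 5.05% (multi-mapped) of the deposited counts.

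Counts were fitted with edgeR 4.0.16 in R 4.3.3 (filterByExpr, TMM factors 0.971 to 1.026, quasi-likelihood test, all 9 libraries, group as the only term, adjusted p under 0.05). SEs are the fold change over the root of F. Of 17559 identifiers, 17253 matched a symbol. Coordinates and merged exon lengths are those of Ensembl for BDGP6, the assembly of dm6. Ratios had 0.5 added to each read count. Alternatives were other scalings, no filter, only the groups compared, a replicate block, left-out libraries and DESeq2 1.42.0. The text names all 9 members, Ubx and every called gene of the pathway list. Genes of like pattern were to be named for called members, so none was. Members and lists were chosen with earlier results of these data known. The fits were tested on simulated data.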

Additional observations from a re-analysis of the deposited data

Results flagged for a closer look

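The effects of the Ubx proteins against GFP differed, in the direct test of Ubx-N51A against Ubx-WT in edgeR, for 3 pathway genes. The log2 difference was 0.36 for otk and 0.55 for otk2, which were higher with Ubx-N51A in 3 of 3 libraries, and -0.56 for Pka-R2, which was lower with Ubx-N51A in 3 of 3 libraries. The Ubx transcript was itself higher in every Ubx-N51A library than in every Ubx-WT library, and its part in these differences was not tested.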

How the results depend on the processing

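The 0 members called with Ubx-N51A against GFP stayed at 0 under all 15 alternatives. With no filter on low counts 1 of 8 members (PlexA) was called with Ubx-WT against GFP, beside 1842 of 14726 genes. In that setting 1 of 8 (Sema2a) was called with Ubx-N51A against Ubx-WT, beside 658 of 14726 genes. With only the 2 groups compared, 1 of 7 was called with Ubx-N51A against Ubx-WT, beside 393 of 9091 genes. Leaving out libraries gave 0 to 1 member called. Leaving out libraries moved the calls over all genes from 1524 to between 990 and 1741 with Ubx-WT against GFP, from 745 to between 362 and 823 with Ubx-N51A against GFP, and from 473 to between 302 and 474 with Ubx-N51A against Ubx-WT; fewer samples entered these fits. The lowest counts came without Ubx-WT replicate 3 (990 and 302) and without GFP replicate 2 (362). A replicate block gave 1369, 607 and 401 calls and 0 members. The labels do not say that a replicate number marks a shared batch or day, so the numbers were not taken to pair samples. Same-numbered libraries of different groups correlated at -0.33 to 0.54 in their deviations, and differently numbered ones at -0.65 to 0.60. All 18 ratios moved by less than 1 SD under each alternative. Promoter motifs were not run. Sema2a had 17 to 76 reads per library and Sema2b 0 to 9, and the causes of the shifts were not tested.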

Other observations

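The nearest tested genes on each side of the 8 members with a row in the files were 15 in all. With Ubx-WT against GFP, 2 of these were called lower in edgeR, P32 beside Sema1b (log2 fold change -0.17, adjusted p 0.0175) and wcd beside Sema2b (-0.24, adjusted p 0.00598), beside 7.83% of all tested genes called lower. The gene jtb, on the other side of Sema2b, was higher with Ubx-N51A than with Ubx-WT (0.30, adjusted p 0.00352) and than with GFP (0.18, adjusted p 0.0489), 1 of 15 neighbours in each, beside 1.23% and 3.38% of all tested genes called higher. No other neighbour was called in the 3 comparisons.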
